A study of Mus musculus with 36 samples.

Results

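The RNAs described here are 10 small structural noncoding RNA genes of the mouse: Rn7sk (7SK RNA), Rmrp (RNase MRP RNA), Rpph1 (RNase P RNA), Rny1 and Rny3 (Y1 and Y3 RNA), Vaultrc5 (vault RNA), Rnu11 and Rnu12 (U11 and U12 RNA of the minor spliceosome) and Rn7s1 and Rn7s2 (copies of 7SL RNA). They were taken by symbol from the gene names of the count files, which list 40205 features, and all 10 were found there. The study grew neurospheres of fetal mouse neural stem cells (NSCs) and sequenced RNA of the cells and of the extracellular vesicles (EVs) that they secreted. There were 6 cultures, one of each sex for each of 3 pregnancies (sets 3, 4 and 5), and each was grown with 0, 120 (moderate) or 320 (heavy) mg/dL ethanol for 5 days. An EV and a cell library were made for every culture at every dose, giving 18 libraries of each kind and 6 in each group of location and dose. The NSCs came from the dorsal telencephalon at gestational day 12.5, all cultures were labelled wild type C57BL/6J (the methods text adds Ai14), and fetuses of a sex were pooled within a pregnancy, so each sex is represented by 3 cultures. EVs were pelleted from conditioned medium by ultracentrifugation, and EV and cell RNA were extracted with different kits, an effect that cannot be told apart from the difference between EVs and cells.

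These RNAs act as parts of ribonucleoprotein particles rather than as messengers. 7SK holds the transcription elongation factor P-TEFb in an inactive complex in the nucleus, RNase P trims the leader from transfer RNA precursors, and RNase MRP, a related nucleolar enzyme, cuts ribosomal RNA precursors. Y RNAs are bound by the Ro60 and La proteins, vault RNAs are found in part in the vault particle, U11 and U12 recognise the ends of a rare class of introns as 1 particle, and 7SL is the scaffold of the signal recognition particle, which brings nascent secretory proteins to the endoplasmic reticulum. Most of them are made by RNA polymerase III, U11 and U12 by RNA polymerase II.

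U11 and U12, Y1 and Y3, and the start of 7SK are shown by the sequences of their GENCODE transcripts on GRCm39, written with T for U, since results for these short RNAs are compared within pairs or are the largest in size. U11 (Rnu11, 134 bases, chromosome 4, 131997391 to 131997524, minus strand) and U12 (Rnu12, 151 bases, chromosome 15, 83033845 to 83033995, plus strand) share the particle in which they work, and capitals mark the run AATTTTT, a form of the site that Sm proteins bind in such RNAs.
Rnu11: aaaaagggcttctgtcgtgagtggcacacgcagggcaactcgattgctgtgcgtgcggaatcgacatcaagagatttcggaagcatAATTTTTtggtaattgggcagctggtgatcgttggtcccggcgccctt
Rnu12: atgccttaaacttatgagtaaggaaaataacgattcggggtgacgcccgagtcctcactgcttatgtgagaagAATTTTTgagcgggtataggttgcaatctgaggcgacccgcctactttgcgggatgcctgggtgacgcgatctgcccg
The run lies at bases 87 to 93 of U11 and 74 to 80 of U12, and 28 of 2090 GENCODE transcripts of 120 to 160 bases (1.34%) hold it, counted on the transcript strand. Y1 (Rny1, 112 bases, chromosome 6, 47765003 to 47765114, minus strand) and Y3 (Rny3, 102 bases, chromosome 6, 47758558 to 47758659, plus strand) are neighbours on opposite strands, and capitals mark runs of at least 7 bases that both hold.
Rny1: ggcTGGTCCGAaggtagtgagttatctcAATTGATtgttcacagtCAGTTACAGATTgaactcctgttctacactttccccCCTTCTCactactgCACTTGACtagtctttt
Rny3: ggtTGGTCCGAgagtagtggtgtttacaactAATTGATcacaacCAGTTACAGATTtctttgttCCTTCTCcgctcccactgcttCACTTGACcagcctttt
The shared runs near both ends (TGGTCCGA and CACTTGAC) fall in the stem that Ro60 binds, and the longest shared run had 12 bases. 7SK (Rn7sk, 331 bases, chromosome 9, 78082585 to 78082915, minus strand) is shown by its first 120 bases, with the letters GATC in capitals, since the first hairpin of 7SK is the part that binds HEXIM proteins.
Rn7sk: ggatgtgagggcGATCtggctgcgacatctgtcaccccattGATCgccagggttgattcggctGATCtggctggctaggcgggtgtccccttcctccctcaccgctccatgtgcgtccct
The whole transcript held GATC 3 times, and 264 of 3284 transcripts of 320 to 340 bases (8.04%) held it at least 3 times. The other genes are Rmrp (271 bases, chromosome 4, 43492788 to 43493058, minus strand), Rpph1 (319 bases, chromosome 14, 51044906 to 51045224, minus strand), Rn7s1 (chromosome 12, 69206069 to 69206368, plus strand) and Rn7s2 (chromosome 12, 69407956 to 69408255, minus strand). The transcripts of Rn7s1 and Rn7s2 were identical at 300 of 300 bases, so a read inside them cannot be placed and the counts of either copy are uncertain.

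The libraries held 959217 to 5509952 counts in EVs (median 3825686) and 26566061 to 55282322 in cells (median 37813815), and 6 EV libraries held under 2000000, so counting error is larger in EVs. Levels are given as counts per 1e6 (CPM) of a library size scaled by TMM, edgeR's method that takes most genes as equal between libraries. Of 8 NSC markers, 6 exceeded a median of 10 CPM in cells. The other two, Sox2 and Sox1, were at 0 in every library, while Sox2ot and Sox1ot, longer genes around them, had medians of 21.7 and 3.90 CPM in cells, and the reason was not tested. Summed markers had medians of 2953 CPM for NSCs, 612 for neurons, 101 for the oligodendrocyte lineage and 75.7 for astrocytes in cells, and of 984, 272, 96.6 and 37.1 CPM in EVs, while those of microglia, endothelium and blood reached at most 1.82 CPM in cells and 13.6 CPM in EVs. The part of other cell types in the results was not tested. The cell library of the female culture of set 3 at 320 mg/dL stood apart in several of the RNAs, and the results that it moved most are also given without it. Some of the RNA genes overlap other genes in the annotation, and whether reads were counted by strand is not given in the sources used here, so reads of overlapping genes cannot be told apart. Rpph1 overlaps exons of Parp2 on the opposite strand (277 bases) and Ccnb1ip1 on its own (268 bases), and Rmrp overlaps an exon of Ccdc107 on the opposite strand (124 bases). Rny3 and Rn7s1 lie in long noncoding RNA genes of their own strand, Gm67032 and Gm59647. The protein-coding genes had medians of at most 13.4 CPM in cells and 7.45 CPM in EVs.

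The make-up of the 10 RNAs differed between EVs and cells. They held 1.21 to 4.99% of all counts in cells (median 2.01%) and 0.215 to 1.53% in EVs (median 0.857%). In cells, Rn7sk gave 48.5 to 71.8% of their summed counts and Rpph1 10.1 to 23.3%. In EVs, Rpph1 gave 49.6 to 71.5% and Rn7sk 3.22 to 15.1%, so that the ranges of either share did not overlap between EVs and cells. These shares are taken within a library and do not depend on how libraries are scaled.

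EVs were compared with cells over all 36 libraries, with terms for sex and dose, with edgeR (quasi-likelihood test, TMM scaling) and Benjamini-Hochberg adjustment over all genes tested. Rnu11, Rpph1 and Rny1 were higher in EVs, the calls of Rpph1 and Rny1 being lost with library totals in place of TMM, Rn7sk, Rn7s2, Vaultrc5 and Rny3 were lower, and Rmrp, Rnu12 and Rn7s1 did not pass an adjusted p of 0.05. Among all 15281 genes tested, 12302 (80.5%) passed, so 7 of 10 is a share near the background. For direction, 3 of 10 were called higher and 4 of 10 lower, against 38.4% and 42.2% of all genes, and the median log2 fold change was -0.21 over the 10 RNAs and -0.08 over all genes. Single RNAs ranged from -3.33 to 3.85 on the log2 scale. The 18 libraries of a kind are 6 cultures at 3 doses that the test takes as independent, so its p-values may be too small and its intervals too narrow. With EV and cell samples of the same culture and dose matched as a block, 7 of the 10 were likewise called. That block still takes the doses of a culture as independent, and no test on the 6 cultures was run. In such bulk libraries, fewer cells or vesicles that hold an RNA and less of it in each cannot be told apart.

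**Figure D1:**
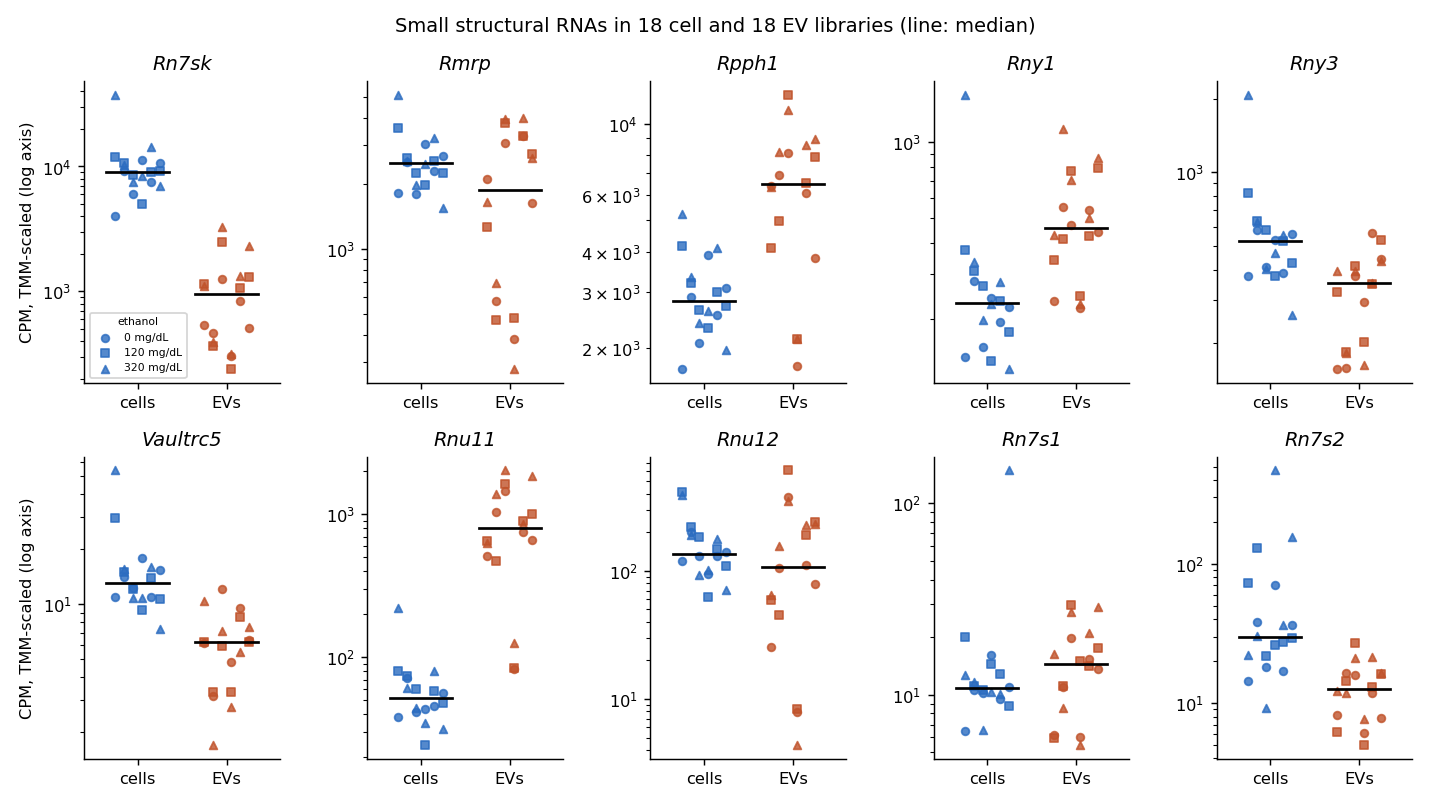
TMM-scaled CPM (log axis, a separate scale for each gene) of the 10 RNAs in 18 cell libraries (blue) and 18 EV libraries (orange), with ethanol dose by marker shape, libraries spread sideways by culture and a black line at the median. Rn7sk is separate between cells and EVs, from 3985 CPM upwards in cells and up to 3304 CPM in EVs, and 15 of 18 EV libraries lie above every cell library for Rnu11.

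7SK RNA (Rn7sk), the nuclear scaffold, was the most reduced. It was found at 3985 to 37469 CPM in cells (median 9091) and at 237 to 3304 CPM in EVs (median 951). Every EV library lay below every cell library, and the EV library was the lower one in 18 of 18 pairs of the same culture and dose. On the log2 scale Rn7sk differed by -3.33 (SE 0.32, adjusted p = 1.2e-11, edgeR), a 10.1-fold lower level, and by -2.95 without the female cell library of set 3 at 320 mg/dL. Over all 10 alternatives it lay between -4.12 and -2.88, and it was -3.97 without set 5.

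U11 RNA (Rnu11), which recognises the 5' end of minor introns, was the most raised. It was found at 24.3 to 221 CPM in cells (median 52.1) and at 82.6 to 2030 CPM in EVs (median 809), from 51 to 5222 counts in EV libraries. EVs were higher in 18 of 18 pairs, although the ranges overlapped through the EV libraries of 1 culture. Rnu11 differed by 3.85 on the log2 scale (SE 0.33, adjusted p = 5.6e-13, edgeR), a 14.5-fold higher level, and it lay between 3.02 and 4.36 over the alternatives. Without the female cell library of set 3 at 320 mg/dL, which held the highest cell level, it was 4.22. In the annotation, U11 lies wholly inside exons of long noncoding RNA genes on both strands, Gm70675 and Gm28872, which the count files do not list.

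U12 RNA (Rnu12), which pairs with the branch site and works in the same particle, did not pass the test. It was found at 63.0 to 416 CPM in cells (median 136) and at 4.37 to 607 CPM in EVs (median 108), a 139-fold range across EV libraries against 6.60-fold in cells. The low end in EVs rests on 26, 5 and 8 counts in the male culture of set 3, where U12 is therefore imprecise. EVs were higher in 7 of 18 pairs. Rnu12 differed by -0.04 on the log2 scale (SE 0.39, adjusted p = 0.929, edgeR), with a 95% interval of -0.83 to 0.75, which includes changes in either direction.

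Of the enzyme RNAs, RNase P RNA (Rpph1) was higher in EVs under TMM scaling and RNase MRP RNA (Rmrp) did not pass. Rpph1 was found at 1720 to 5249 CPM in cells (median 2799) and at 1764 to 12303 CPM in EVs (median 6471). In 12 of 18 EV libraries Rpph1 was above every cell library, and the lowest EV libraries lay inside the range of cells. Rpph1 differed by 1.08 on the log2 scale (SE 0.21, adjusted p = 2.4e-05, edgeR). Rmrp was found at 1537 to 5139 CPM in cells (median 2491) and at 277 to 3993 CPM in EVs (median 1868). EVs were higher in 9 of 18 pairs under TMM scaling and in 2 of 18 on library totals. Its log2 fold change of -0.34 (SE 0.30) did not pass (adjusted p = 0.290, edgeR), with a 95% interval of -0.95 to 0.26.

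Under TMM scaling, Y1 was called higher and Y3 lower in EVs, but the call of Y1 was lost with library totals (0.06 on the log2 scale) and without the filter on low counts (0.20), where Y3 was at -1.58 and -1.41. Y1 (Rny1) was found at 126 to 1541 CPM in cells (median 232) and at 220 to 1124 CPM in EVs (median 456), and was higher in EVs in 15 of 18 pairs. Y3 (Rny3) was found at 260 to 2076 CPM in cells (median 525) and at 156 to 566 CPM in EVs (median 351), and was lower in EVs in 15 of 18 pairs. For both, the ranges of EVs and cells overlapped. Between EVs and cells, the log2 fold change was 0.88 for Rny1 (SE 0.24, adjusted p = 0.0013, edgeR) and -0.79 for Rny3 (SE 0.22, adjusted p = 0.0016, edgeR). Both calls rested on single pregnancies in part, since Rny1 did not pass without set 5 (adjusted p = 0.106) and Rny3 did not pass without set 3 (adjusted p = 0.0503). Without the female cell library of set 3 at 320 mg/dL, the cell library with the highest Rny1 and Rny3 levels, the log2 fold changes were 1.35 and -0.39.

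Vault RNA (Vaultrc5, 143 bases, chromosome 18, 36934919 to 36935061, plus strand) was scarce. It was found at 7.28 to 53.8 CPM in cells (median 13.0) and at 1.70 to 12.1 CPM in EVs (median 6.18), the latter from only 1 to 37 counts per library. EVs were lower in 17 of 18 pairs, and 13 EV libraries lay below every cell library. Vaultrc5 differed by -1.22 on the log2 scale (SE 0.22, adjusted p = 4.7e-06, edgeR), and by -0.85 without the female cell library of set 3 at 320 mg/dL, where it remained called.

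The 7SL copies had unequal counts despite their identical transcripts. Rn7s2 was found at 9.22 to 469 CPM in cells (median 29.9) and at 4.98 to 26.8 CPM in EVs (median 12.6), and was lower in EVs in 16 of 18 pairs. Rn7s1 was found at 6.47 to 149 CPM in cells (median 10.8) and at 5.46 to 29.6 CPM in EVs (median 14.6), with EVs higher in 11 of 18 pairs. For the copies, the log2 fold change was -2.10 for Rn7s2 (SE 0.40, adjusted p = 1.1e-05, edgeR) and -0.08 for Rn7s1 (SE 0.32, adjusted p = 0.836, edgeR). Without set 3 the value for Rn7s2 was -1.42. Individual libraries of cells set the upper ends of these ranges. The male cells of set 3 at 320 mg/dL had 27426 counts of Rn7s2 beside 607 of Rn7s1, and the male cells of set 5 at 320 mg/dL had 6460 beside 6144, while no other cell library had more than 8250 of Rn7s2 or 1230 of Rn7s1.

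How the libraries were scaled moved some of these calls. With library totals instead of TMM, the median log2 fold change of all genes tested went from -0.08 to -0.88, and the split of calls over all genes from 5861 higher and 6441 lower to 3435 higher and 9279 lower. Of the 10 RNAs, only Rnu11 was then called higher (log2 fold change 3.02) and 7 were called lower. Rpph1 (0.25, adjusted p = 0.242, edgeR) and Rny1 (0.06, adjusted p = 0.801) lost their calls on that scale, while Rmrp (-1.16), Rnu12 (-0.92) and Rn7s1 (-0.94) passed as lower. The counts of pairs given above are under TMM scaling. On library totals, EVs were higher in 12 of 18 pairs for Rpph1, 12 for Rny1, 5 for Rn7s1, 4 for Rnu12 and 2 for Rmrp. Relative to the median of all genes, the values were 1.16 and 1.13 for Rpph1, 0.96 and 0.93 for Rny1 and 3.93 and 3.90 for Rnu11, with -3.25 on both scales for Rn7sk. A change of scaling moves all genes by much the same amount, so these values are close by construction. They do not bear on whether the calls of Rpph1 and Rny1 hold.

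**Figure D2:**
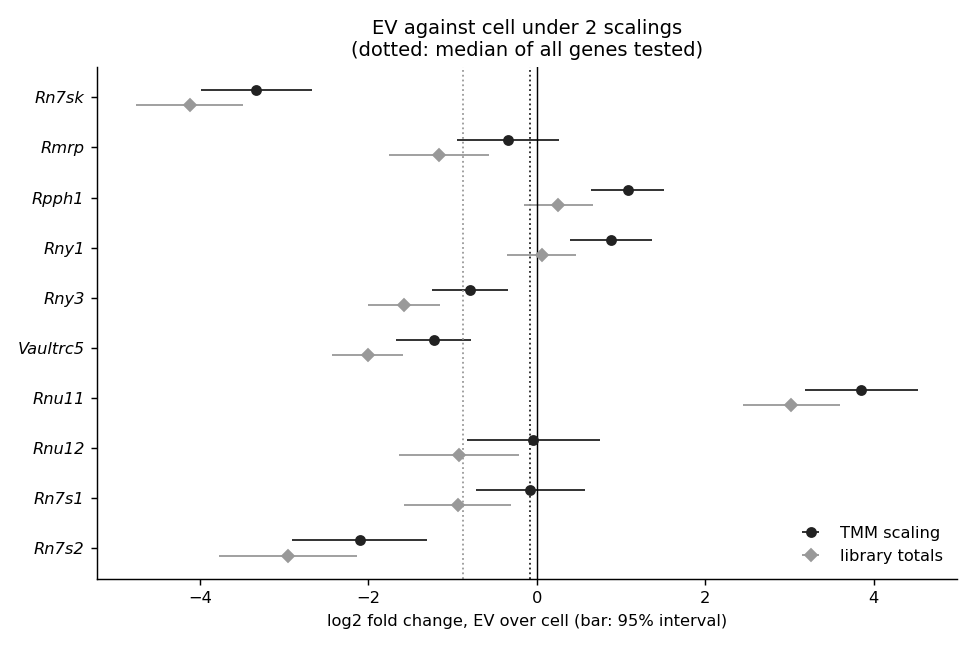
EV over cell log2 fold change for each RNA with its 95% interval from edgeR, under TMM scaling (black circles) and library totals (grey diamonds), with dotted lines at the median of all genes tested under either scaling. All 10 RNAs shift to the left under library totals together with that median, from -0.08 to -0.88, and Rnu11 alone keeps an interval above 0 on both scales.

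The balance within the pairs of related RNAs was also taken as the ratio of their counts within a library, which no scaling enters. These 3 pairs were chosen after the values were seen, so their ratios are a description and no test is given. Rnu11 over Rnu12 was 0.193 to 0.565 in cells (median 0.372) and 2.68 to 28.7 in EVs (median 8.63), without overlap, so that U12 outnumbered U11 in every cell library and U11 outnumbered U12 in every EV library. The highest EV ratio of 28.7 rests on 230 counts of Rnu11 and 8 of Rnu12. Averaged over the doses of a culture, the log2 ratio was higher in EVs by 4.39 ± 0.83 (SD, n = 6 cultures), from 3.41 to 5.29. Rny1 over Rny3 was 0.361 to 0.742 in cells (median 0.475) and 0.750 to 6.19 in EVs (median 1.42). The ranges of the Y RNA ratio did not overlap either, and the log2 ratio was higher in EVs by 1.72 ± 0.61 (SD, n = 6 cultures). Rpph1 over Rmrp was 0.952 to 1.31 in cells (median 1.17) and 1.83 to 12.1 in EVs (median 3.24), higher in EVs by 1.73 ± 0.88 on the log2 scale (SD, n = 6 cultures). For each of the 3 ratios, all 6 cultures were higher in EVs. In cells, the Rpph1 to Rmrp ratio varied the least of the 3, while in EVs it was tied to the culture, at 10.6 to 12.1 in the female culture of set 4 and at most 7.71 in any other.

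**Figure D3:**
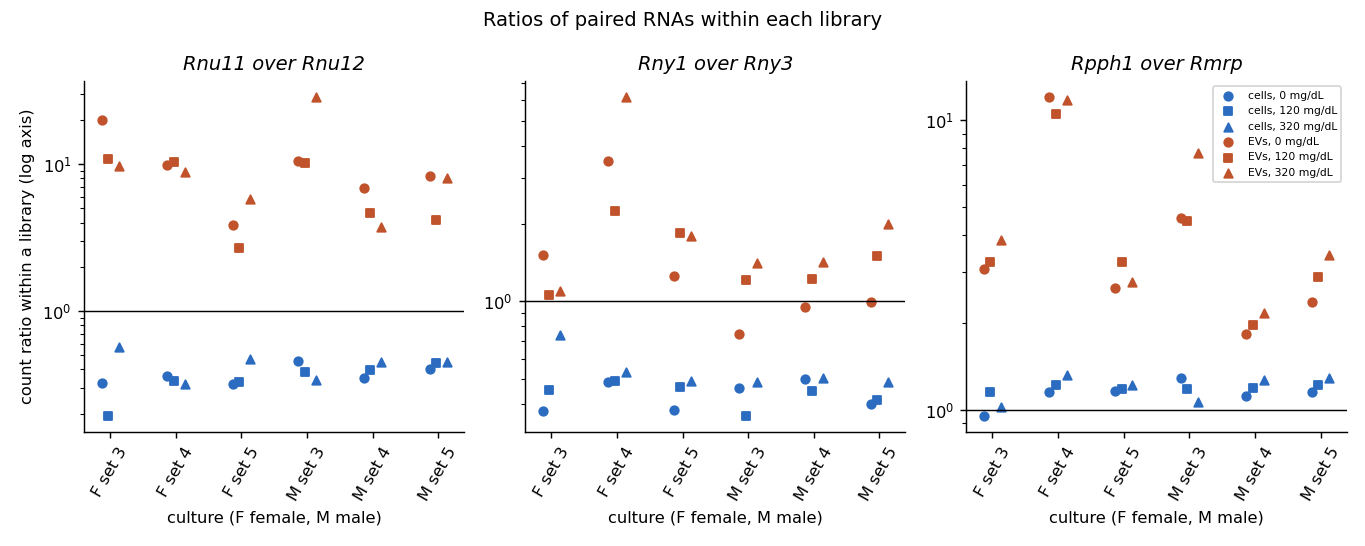
Ratio of the counts of 2 related RNAs within each library (log axis, horizontal line at 1) for the 6 cultures, cells in blue and EVs in orange, ethanol dose by marker shape. In all 3 panels every EV library lies above every cell library, with the widest separation for Rnu11 over Rnu12, at 0.565 or less in cells and 2.68 or more in EVs.

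To compare the RNAs with one another, levels were divided by transcript length and ordered by their median CPM per kilobase. In cells the order was Rn7sk (27466), Rmrp (9192), Rpph1 (8774), Rny3 (5148), Rny1 (2069), Rnu12 (898), Rnu11 (389), Rn7s2 (99.6), Vaultrc5 (91.1) and Rn7s1 (36.1). Rmrp and Rpph1 were not separated, with Rmrp above in 10 of 18 cell libraries, and neither were Rn7s2 and Vaultrc5, also 10 of 18. In EVs the order was Rpph1 (20285), Rmrp (6894), Rnu11 (6036), Rny1 (4072), Rny3 (3442), Rn7sk (2873), Rnu12 (716), Rn7s1 (48.5), Vaultrc5 (43.2) and Rn7s2 (42.1). Rpph1 led Rmrp in 18 of 18 EV libraries, whereas Rmrp led Rnu11 in 12, Rny3 led Rn7sk in 11, and the last 3 changed places from library to library. Ranges of neighbours overlapped throughout both orders. The order depended on the division by length. Without it, the EV median of Rn7sk (951 CPM) was above those of Rnu11 (809), Rny1 (456) and Rny3 (351). In cells that of Rpph1 (2799 CPM) was above that of Rmrp (2491). Whether counts rise with length among RNAs this short was not tested. Lengths are those of GENCODE and could differ from the annotation used for counting. The transcripts of Rn7s1 and Rn7s2 are identical, so reads inside them cannot be placed. How such reads were counted is not given in the sources used here. The places of Rn7s1 and Rn7s2 in both orders therefore do not show how abundant the RNA that they encode was.

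EV levels varied widely among cultures. The male culture of set 3 had the lowest EV levels of U11 at every dose, with 82.6, 84.6 and 126 CPM of Rnu11 at 0, 120 and 320 mg/dL, while the other 5 cultures had 473 to 2030 CPM. The same culture had 7.87, 8.30 and 4.37 CPM of Rnu12, against 25.7 CPM or more in the others. In its cells both RNAs lay at the lower end of the range, with 24.3 to 43.4 CPM of Rnu11 and 63.0 to 102 CPM of Rnu12. For Rmrp, EVs of that culture (277 to 478 CPM) and of the female culture of set 4 (470 to 692 CPM) lay below those of the other 4 cultures, which had at least 1265 CPM. By pregnancy, median EV levels of Rnu11 were 319 CPM in set 3, 878 in set 4 and 1539 in set 5, and those of Rnu12 were 17.0, 133 and 294 CPM. The EV libraries with low U11 were not all shallow, since the 3 held 3354842, 959217 and 1605442 counts in the order of dose, and the part of depth in their levels was not tested.

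**Figure D4:**
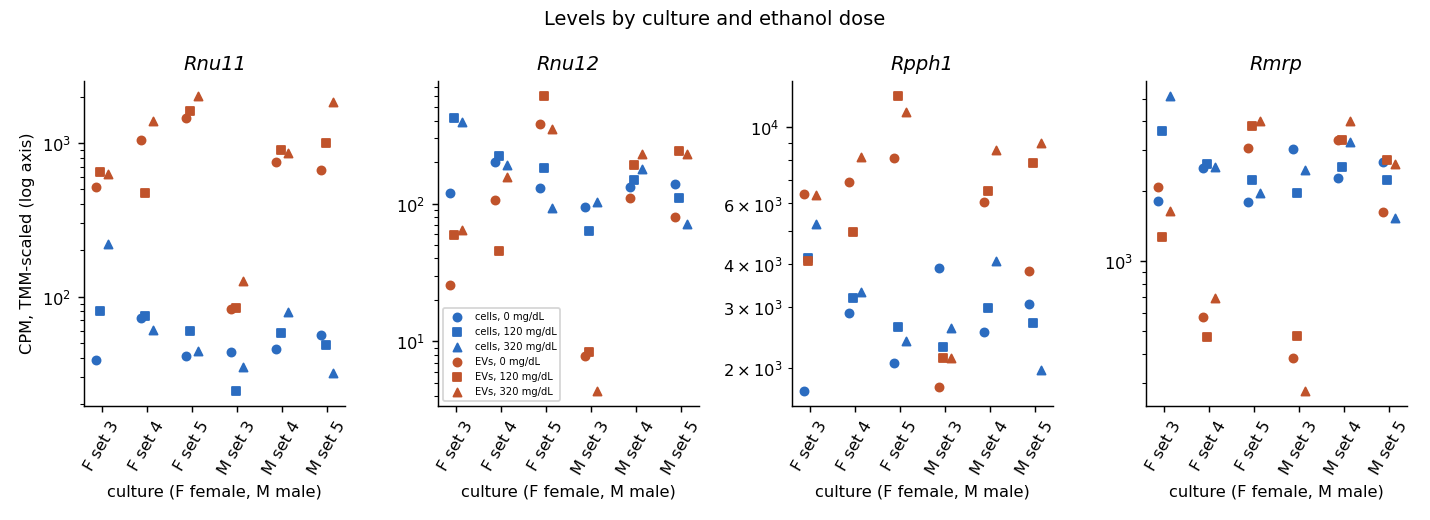
TMM-scaled CPM (log axis) of Rnu11, Rnu12, Rpph1 and Rmrp by culture, cells in blue and EVs in orange, ethanol dose by marker shape. Cultures differ in EVs across all 3 doses, as in the male culture of set 3, whose EV libraries have at most 126 CPM of Rnu11 while every other EV library has at least 473 CPM.

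Ethanol was compared with control within the 6 cultures, in EVs and in cells, by edgeR with the culture as a block. None of the 10 RNAs passed an adjusted p of 0.05 at either dose in either location. Few genes passed at all, with 0% of 17792 genes called in cells and 0.00842% of 11880 in EVs at 120 mg/dL, and 0.0393% in cells and 0.0842% in EVs at 320 mg/dL. At an unadjusted p under 0.05, 0 of the 10 RNAs passed in cells at 120 mg/dL (2.5% of all genes), 0 in EVs at 120 mg/dL (6.26%), 0 in cells at 320 mg/dL (8.57%) and 6 in EVs at 320 mg/dL (11.9%). The 6 are Rn7sk, Rn7s2, Rn7s1, Rny1, Rnu11 and Rnu12, which were measured in the same libraries and are not independent of each other. Of these, 4 had their highest log2 ratio to control in EVs of the male culture of set 5. They were Rn7sk (2.18), Rnu12 (1.54), Rnu11 (1.48) and Rn7s2 (1.08). Rny1 and Rn7s1 were highest in female cultures, of sets 4 and 3.

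In EVs, Rn7sk was found at 306 to 1247 CPM (median 524) without ethanol, at 237 to 2495 CPM (median 1098) at 120 mg/dL and at 314 to 3304 CPM (median 1214) at 320 mg/dL. The groups overlapped, and within a culture the level at 320 mg/dL was above control in 5 of 6 cultures. Rn7sk differed from control by 0.81 on the log2 scale (SE 0.28, adjusted p = 0.242, edgeR), with a 95% interval of 0.22 to 1.39. DESeq2 called Rn7sk (adjusted p = 0.036) among 0.902% of 29604 genes. Without set 5 the edgeR log2 fold change was 0.37 (adjusted p = 0.957), and without the 6 EV libraries under 2000000 counts it was 1.31 (adjusted p = 0.215).

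Under TMM scaling, U11 was the RNA whose EV level was above control in all 6 cultures at 320 mg/dL. Its log2 ratios ran from 0.19 to 1.48. On that scale it was found in EVs at 82.6 to 1452 CPM (median 710) without ethanol. It was at 84.6 to 1626 CPM (median 772) at 120 mg/dL and at 126 to 2030 CPM (median 1126) at 320 mg/dL. The groups overlapped almost wholly. With library totals, U11 at 320 mg/dL was below control in EVs of both cultures of set 4 and above control in the other cultures. In set 4 it went from 974 to 530 CPM in the female culture and from 736 to 681 CPM in the male culture. At 320 mg/dL the log2 fold change of Rnu11 was 0.59 (SE 0.24, adjusted p = 0.330, edgeR). The other RNAs with a low unadjusted p in EVs at 320 mg/dL had log2 fold changes of 0.58 (Rny1), 0.60 (Rn7s2), 0.63 (Rn7s1) and 0.67 (Rnu12), all with adjusted p of 0.258 or more in edgeR. Y3 and RNase MRP RNA were at -0.03 (Rny3) and 0.14 (Rmrp), and RNase P RNA was at 0.43 (Rpph1), none of them called. Vault RNA was at -0.28 (Vaultrc5), with a median of -0.77 over the 6 cultures, which ran from -0.89 to 0.75 with 4 below control. The median over the 10 RNAs was 0.58 beside 0.01 over all genes tested, and with library totals the median of all genes was -0.24, Rn7sk was at 0.58 and Rnu11 at 0.29.

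In cells, log2 fold changes at 320 mg/dL ran from 0.09 (Rnu12) to 1.23 (Rn7s2), with adjusted p between 0.646 and 0.952. A single culture weighed on several of these. In the female cells of set 3, Rn7sk was at 3985 CPM without ethanol, 11853 at 120 mg/dL and 37469 at 320 mg/dL, a log2 ratio of 3.23 at the higher dose, whereas the other 5 cultures lay between -0.63 and 0.92. Without that library the log2 fold change of Rn7sk went from 0.56 to 0.20 and that of Rnu11 from 0.35 to 0.00. At 120 mg/dL the values ran from -0.05 (Vaultrc5) to 0.93 (Rn7s2) in cells and from -0.40 (Vaultrc5) to 0.58 (Rnu12) in EVs.

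**Figure D5:**
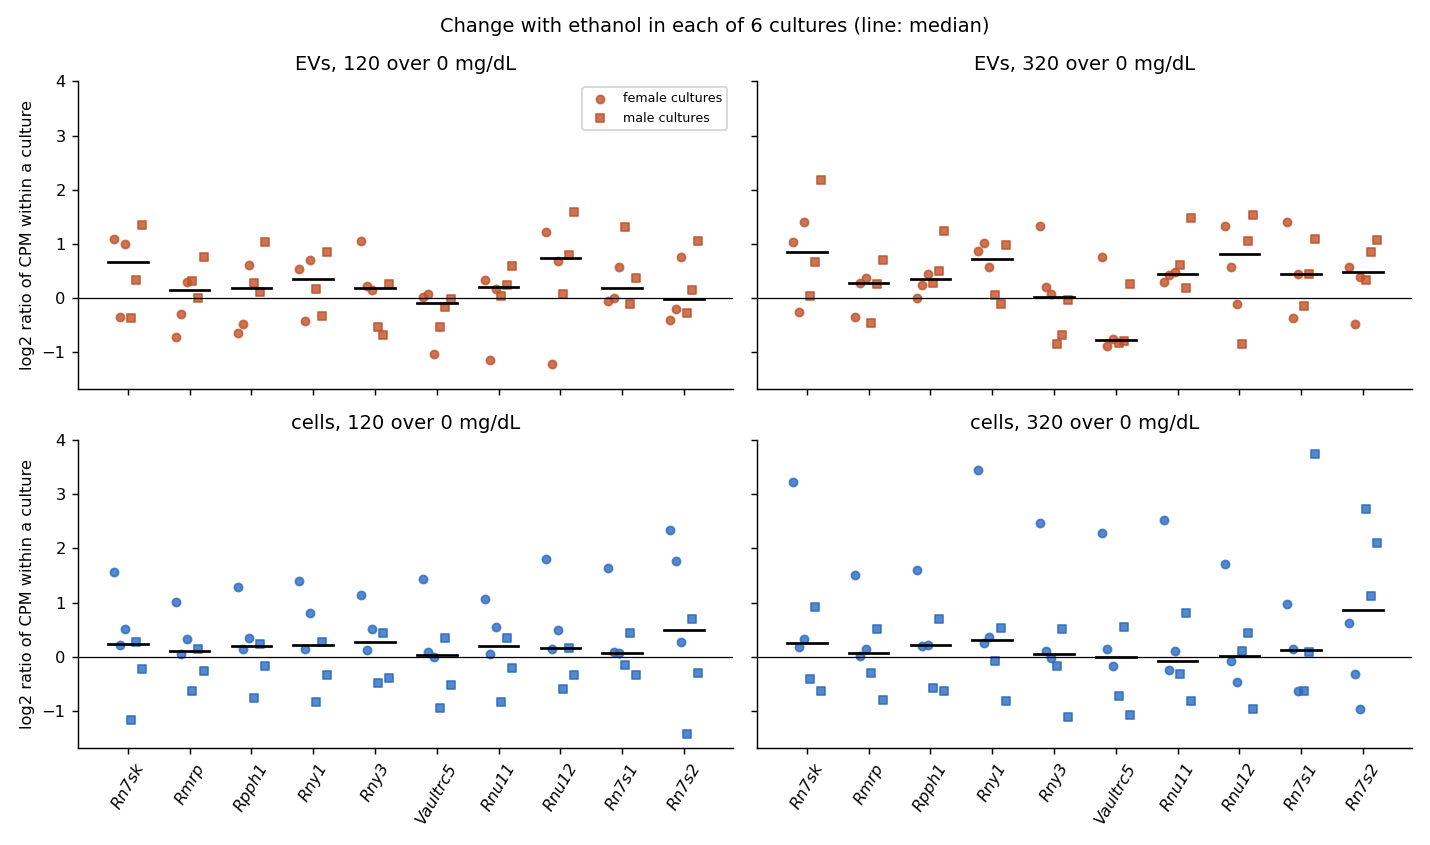
The log2 ratio of TMM-scaled CPM with ethanol over control within each of 6 cultures, for EVs (orange, top) and cells (blue, bottom) at 120 mg/dL (left) and 320 mg/dL (right), with female cultures as circles, male cultures as squares and a black line at the median. Cultures fall on both sides of 0 for nearly every RNA, Rnu11 in EVs at 320 mg/dL has all 6 cultures above 0, and the female culture of set 3 is the highest of the 6 in cells at 320 mg/dL for 8 of 10 RNAs, Rn7s1 and Rn7s2 excepted, at 3.23 for Rn7sk.

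The EV to cell ratio was compared between doses as the interaction of location and dose in edgeR, with each matched EV and cell pair as a block and a term for location by culture. None of the 10 RNAs passed at 120 mg/dL, where 0.0107% of 18728 genes did, or at 320 mg/dL, where 0% did and 1006 genes had an unadjusted p under 0.05. At 320 mg/dL the change of the log2 ratio ran from -0.45 (Vaultrc5) to 0.54 (Rnu12), and every 95% interval included 0. For Rn7sk the change was 0.20, with an interval of -0.76 to 1.15, and 0.61 without the female EV and cell libraries of set 3 at that dose. In simulated counts the ratio test at 320 mg/dL recovered 21% of 2-fold changes, so a change of that size can go uncalled.

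Females and males were compared within EVs and within cells with a term for dose. In EVs none of the 10 RNAs passed in edgeR, against 11.1% of all genes, and in cells none passed, against 5.83%. Female and male cultures of a number came from the same pregnancy, and with pregnancy as a block Rnu11 passed in EVs (1.20 on the log2 scale, SE 0.34, adjusted p = 0.016, edgeR, with 27.1% of all genes called). Without the block it was 0.76 (SE 0.53, adjusted p = 0.328). Female EVs were above the male EVs of the same pregnancy and dose in 8 of 9 pairs for Rnu11, with the largest gap in set 3. Rnu12 had the lowest adjusted p of the 10 RNAs in cells, 0.093 by edgeR, at 0.82 on the log2 scale (SE 0.28), with female cells higher in 8 of 9 pairs. Without the female cell library of set 3 at 320 mg/dL it was at 0.63 (adjusted p = 0.216, edgeR). With the counts of a culture summed over doses, which leaves 3 cultures of each sex, the values were 0.70 for Rnu11 in EVs (adjusted p = 0.626) and 0.70 for Rnu12 in cells (adjusted p = 0.757).

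Messenger RNAs of the proteins that bind these RNAs, or make them, were also compared. Of 68 genes in 7 lists, 65 were tested between EVs and cells, 40 of them (61.5%) called lower and 14 (21.5%) higher by edgeR, against 42.2% and 38.4% of all genes, with a median log2 fold change of -0.60 beside -0.08. With library totals the split was 57 lower and 3 higher, against 60.7% and 22.5% of all genes, with a median of -1.39 beside -0.88. For RNase P and MRP, 8 of 9 tested protein genes were lower and none higher, with a median of -1.07, the lowest being Rpp40 at -1.99, beside 1.08 for the RNase P RNA, whose call was lost with library totals and without the filter. Rpp40 was scarce, with medians of 2.69 CPM in cells and 0.66 CPM in EVs, and only 6 of these protein genes passed the filter within EVs. For the signal recognition particle, 8 of 9 were lower with a median of -1.21, the lowest being Srpr, which encodes the receptor subunit alpha, at -3.15. Within EVs, 7 genes of that list passed the filter, so some genes of both lists may have been tested through the deeper cell libraries alone. Both Y RNA binding genes were lower, Ssb (the La protein) at -1.85 and Ro60 at -0.76 (SE 0.07).

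In the lists for the 7SK particle, the minor spliceosome and RNA polymerase III, 57.1%, 50.0% and 51.9% of the tested genes were lower, nearer to the 42.2% of all genes. In the 7SK particle, 4 of 7 were lower and 2 higher with a median of -0.53, from Ccnt2 (cyclin T2) at -1.75 to Mepce (the 7SK capping enzyme) at 0.47. Of 8 minor spliceosome genes, 4 were lower and 2 higher with a median of -0.29, from Rnpc3, which encodes a protein of the U11/U12 particle, at -3.19 to Pdcd7, another such protein, at 0.71. The 3 vault genes were all higher, Tep1 by the most at 2.35, although with library totals only 1 of 3 was called and the median went from 0.59 to -0.24. Tep1 was scarce, with medians of 0.52 CPM in cells and 2.57 CPM in EVs. Of 27 genes for RNA polymerase III and its factors, 14 were lower and 7 higher with a median of -0.37, from Polr3d at -2.04 to Gtf3c4 at 2.00. With ethanol, 0 of the 65 tested genes passed in cells and 0 of 59 in EVs at either dose in edgeR, with 0 and 8 in cells and 0 and 4 in EVs at an unadjusted p under 0.05 at 120 and 320 mg/dL. Of all genes, 2.5% and 8.57% in cells and 6.26% and 11.9% in EVs had such an unadjusted p. In EVs, 2 of 57 were called lower in females, where 11.1% of all genes differed by sex, both of RNA polymerase III, Polr3f by the most at -0.62 (adjusted p = 0.035, edgeR).

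The genes with the most similar course over the 36 libraries were sought by the root mean square difference of centred log2 CPM, as a description. For Rn7sk they were Gm25541 (0.57), an annotated snRNA gene, and Plat (0.61), and for Rnu11 they were Gm22513 (0.72), likewise annotated as an snRNA gene, and Dnah7a (0.75). Rnu12 was nearest to Snhg12 (0.75) and Snhg1 (0.78), host genes of small nucleolar RNAs. Rpph1 was nearest to the transfer RNA gene n-TRcct1 (0.43) and to Rny1 (0.49), and Rny1 to n-TRcct1 (0.36) and n-TDgtc16 (0.42), another transfer RNA gene. Rny3 was nearest to n-TPtgg8 (0.34) and Atpif1 (0.37), Vaultrc5 to Ndufc1 (0.39) and Cox5b (0.40), and Rmrp to the mitochondrial ribosomal RNA mt-Rnr2 (0.57) and Anapc13 (0.58). For the 7SL copies the nearest genes were further away, at 0.76 (Mipep) for Rn7s1 and 0.90 (Tspan15) for Rn7s2.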

How the data were processed

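Total RNA of 18 EV and 18 cell samples was depleted of ribosomal RNA and made into stranded libraries. After trimming (Trimmomatic) and removal of duplicate reads, the authors aligned to mm39 with STAR and obtained gene totals with HTSeq. The values they deposited are raw counts without normalization. Symbols were placed on GRCm39, the same assembly as mm39, with GENCODE vM39. Transcript sequences were read from GENCODE and searched on the transcript strand.

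Counts were analysed as deposited in R 4.3.3 with edgeR 4.0.16 (filterByExpr with minimum count 10 and minimum total 15, TMM, quasi-likelihood F tests, Benjamini-Hochberg adjustment over all genes tested, threshold 0.05). DESeq2 1.42.0 was an alternative. Levels are CPM on the TMM-scaled totals of the 36 libraries. Intervals are 95% intervals from the quasi-likelihood standard error, and a prior count of 1 was used for log2 CPM. Values were drawn with Python 3.11.15 and matplotlib 3.10.9. The tests were tested on simulated counts with 200 genes changed 2-fold and no differences between cultures. With edgeR, 76% of these genes were recovered between EVs and cells and 60% by sex in either location. For EVs against cells, all other genes were simulated with equal means in both, whereas 80.5% of genes passed in the data. The 76% therefore does not bear on calls that depend on how libraries were scaled. For ethanol at 120 and 320 mg/dL, 77.5% and 69% were recovered in cells and 56% and 61% in EVs. For the EV to cell ratio, only 18.5% and 21% were recovered.

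The members, the gene lists and the tests were chosen with earlier results of these data known. All 10 genes are named in every comparison. Of the partner lists, the called gene with the largest change in each direction is named per list and comparison, with Ro60, and of the genes most like a member the 2 nearest. The alternatives were DESeq2, median-of-ratios factors, library totals, no filter, each pregnancy left out in turn, a block added or removed, counts summed over doses, and only the doses compared. Fits without the 6 EV libraries under 2000000 counts or without 1 cell library that stood apart, the ratios of paired RNAs and the split of the gene lists under library totals were chosen after seeing the data.

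The labels give the pregnancy as set number, so a number marks a shared litter, and EVs and cells of the same culture and dose come from the same flasks. Their deviations from the location mean correlated with a median of 0.067 over 18 pairs (0.0070 to 0.278). No 2 libraries held identical counts. P-values over libraries take the 3 doses of a culture as independent unless the culture is in the model. A block of the EV and cell pair alone or of the pregnancy alone does not change this. Counting error alone is covered where ranges of counts are given.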

Additional observations from a re-analysis of the deposited data

Results flagged for a closer look

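In each of 60 groups of 6 libraries (10 RNAs, 2 locations, 3 doses), the highest and the lowest level were checked for a gap to the others on the log2 scale beyond Dixon's 95% limit. Chance flags about 1 in 20 such groups, and 4 of 60 were flagged. Rn7sk in the male cells of set 3 at 120 mg/dL was at 4971 CPM, below the 8589 to 11853 CPM of the other 5. Rpph1 in the male EVs of set 3 at 320 mg/dL was at 2135 CPM, below 6367 to 11030 CPM. Rnu11 in the male EVs of set 3 without ethanol was at 82.6 CPM, below 514 to 1452 CPM. Rn7s1 in the male cells of set 5 at 320 mg/dL was at 149 CPM, above 6.57 to 12.7 CPM. Of the 4, 3 come from the male culture of set 3, whose part in the comparisons is covered by leaving out that pregnancy. The female cell library of set 3 at 320 mg/dL, left out of some fits after seeing the data, was not flagged for any RNA.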

How the results depend on the processing

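Between EVs and cells, Rn7sk, Rn7s2, Vaultrc5 and Rnu11 kept their direction and call under all 10 alternatives. Leaving out a pregnancy gave 6 to 7 called RNAs. Without the filter on low counts, Rpph1 (log2 fold change 0.43, adjusted p = 0.067, edgeR) and Rny1 (0.20, adjusted p = 0.417) lost their calls and Rmrp (-0.96) and Rn7s1 (-0.73) gained one, and the median of all genes was 0.46. The count of called RNAs went from 0 to 1 in EVs at 320 mg/dL with DESeq2 (Rn7sk), and from 0 to 1 between sexes in EVs with the pregnancy as a block (Rnu11). The block of EV and cell pair, like the fits of dose without a block (no call in any), changed no other call. Over all genes, edgeR's 12302 calls between EVs and cells became 22029 without the filter and 23256 with DESeq2, and the calls for ethanol at 320 mg/dL went from 10 to between 0 and 267 in EVs and from 7 to between 0 and 94 in cells. By sex, the calls in EVs ranged from 0 (counts summed over doses) to 2993 and in cells from 7 to 2953. The cause of these shifts was not tested. EV depth limits Vaultrc5, Rn7s1, Rn7s2 and Rnu12, which had as few as 1, 5, 3 and 5 counts in an EV library. Without the EV libraries under 2000000 counts, the mean log2 gaps between EVs and cells were 4.14 for Rnu11 over Rnu12, 1.35 for Rny1 over Rny3 and 1.40 for Rpph1 over Rmrp.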

Other observations

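Other small RNA families in the same libraries were taken by symbol and are given as counts and medians. Of 155 transfer RNA genes tested between EVs and cells, 132 (85.2%) were lower and 5 (3.23%) higher in EVs by edgeR, against 42.2% and 38.4% of all genes, with a median log2 fold change of -2.13 beside -0.08. With library totals, 148 were lower and 1 higher, against 60.7% and 22.5% of all genes. A gene could pass the filter of this comparison through the cell libraries alone, which are deeper. Within EVs only 43 transfer RNA genes passed the filter, beside 11880 of all genes, so the share called lower may be set in part by the filter. Of 24 microRNA genes, 11 (45.8%) were lower and 8 (33.3%) higher, shares near those of all genes, with a median of -0.42, and of 5 small nucleolar and Cajal body RNA genes 3 were lower and 1 higher, with a median of -1.23. At 320 mg/dL in EVs, none of 43 transfer RNA, 10 microRNA and 5 small nucleolar or Cajal body RNA genes passed in edgeR, with 1, 2 and 2 at an unadjusted p under 0.05. Of all genes, 0.0842% passed and 11.9% had such an unadjusted p. In cells, 10 of 194 transfer RNA genes were called higher in females and none lower, a share near the 5.83% of all genes called in either direction. Their median log2 fold change was 0.54 beside -0.01 over all genes tested. That test takes the 3 doses of a culture as independent, and with counts summed over doses 7 of 20972 genes passed in cells. The transfer RNA genes are not given for that fit, nor without the female cell library of set 3 at 320 mg/dL. The snRNA gene Gm22513, whose course was the most similar to that of U11, was found at 389 to 19707 CPM in EVs (median 4975) and at 100.2 to 312 CPM in cells (median 180), so EVs were above every cell library. It was picked for its likeness to U11 in these same libraries, so this gap follows largely from the choice.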
